A study of Oryza sativa and Arabidopsis thaliana with 28 samples.

Results

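The data described here are the 341437 reference cytosines listed for rice in ac4C-seq, of 408312 listed for rice and Arabidopsis together, with the reads that showed thymine at each of them. Every listed rice site was taken, and a test was run on the 335678 of them (98.3%) that had 50 reads or more in each library. The tested sites lay on chromosomes 1 to 8, on chromosome 9 up to position 30801 alone, and in the mitochondrial and chloroplast genomes. No other chromosome held a tested site, so the counts do not cover the whole genome. One library came from RNA reduced with NaCNBH3 (sodium cyanoborohydride) at 100 mM in hydrochloric acid for 20 min, and the control library from RNA mock-treated in parallel without the reducing agent. Both used polyadenylated RNA of 15-day-old seedlings of the japonica cultivar Nipponbare, so the acid, the polyadenylated selection and the plant age were common to both arms. There was 1 library per arm, and nothing separates a difference between treatments from a difference between libraries. A second table gave RPKM (reads scaled for transcript length and library size) of 3695 rice genes in total mRNA and in mRNA bound to ribosomes (RNC-mRNA). Those libraries came from wild type and the osnat10-1 mutant of another cultivar, Kitaake, with 2 libraries for each genotype and RNA fraction.

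N4-acetylcytidine (ac4C) is a cytidine that carries an acetyl group on the base. Enzymes of the NAT10 (yeast Kre33) family write it, and its long-known places are the small-subunit ribosomal RNA and some transfer RNAs. Cyanoborohydride in acid reduces ac4C to a base that reverse transcriptase reads as uridine, so a modified cytidine appears as a C-to-T mismatch in the reduced library and not in the mock. Plant mitochondria and chloroplasts also deaminate cytidines of their own transcripts to uridine, and such an edited site reads as T in both libraries. The site table lists reference C alone. A listed base is therefore a cytidine in the transcript of a plus-strand gene, and in the transcript of a minus-strand gene it lies opposite a guanosine.

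After reduction almost every listed cytosine carried more T reads than in the control, by about 1 percentage point. The median T rate (T reads over all reads at a site) was 1.09% in the reduced library and 0% in the control, where 74.9% of the sites had no T read. Summed over all tested sites, T made up 0.889% of reads after reduction and 0.0694% in the control. A two-sided Fisher's exact test per site, adjusted over all tested sites by the Benjamini-Hochberg method, called 204418 sites higher after reduction, which is 60.9% of the sites tested, and 958 sites lower, which is 0.285%. This test on the reads of a pair of libraries compares those libraries and not the conditions. Of the sites called higher, 202434 (99.0%) lay less than 5 percentage points above the control. A rise of at least 5 points was seen at 1984 called sites (0.591% of those tested), of at least 10 points at 561 (0.167%), of at least 20 points at 207, and of at least 50 points at 18. With the control rate at most 1%, the counts were 1751, 424, 149 and 12.

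The table is itself selected: each listed site had at least 5 T reads in the reduced library, and no such minimum applied to the control. A site with few reads could enter only with a high rate, so the rates fell with depth. The median rate was 3.68% at 50 to under 200 reads, 1.74% at 200 to under 500, 1.03% at 500 to under 1000 and 0.863% at 1000 to under 2000. It was 0.900% for 2000 to under 5000 reads and 0.900% for 5000 to under 20000, and lower again, at 0.676%, for the 11161 sites with 20000 reads or more. The share of sites called higher was 42.7% in the shallowest class, 88.2% at 5000 to under 20000 reads and 86.5% in the deepest. The shallowest class held 1228 of the 1984 sites of at least 5 points. Median depth was 814 reads in the reduced library and 750 in the control, and the read totals reached 99771 and 99949. In the set of 24651 sites with at least 5 T reads in both libraries, where the listing treats the arms alike, 19918 were called higher and 949 lower. The intervals given below are exact Clopper-Pearson 95% intervals of a single library's share, and the limit for a count of 0 is 3 reads of the total. Both cover counting error only, since the reads carried no molecular identifiers.

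**Figure D1:**
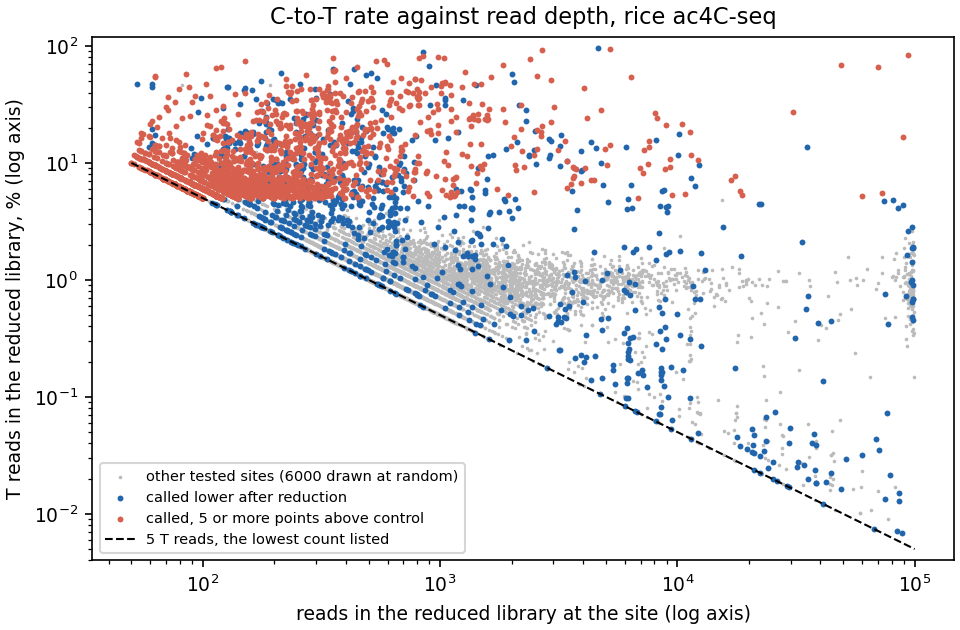
T rate in the reduced library (percent, log axis) against reads at the site in that library (log axis), for every called site at least 5 points above the control (red), every site called lower (blue) and 6000 other tested sites drawn at random (grey). The dashed line is the rate that 5 T reads give; no point lies below it, and most of the red points are at the low-depth end.

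At deeply read sites the T rate depended on the strand of the gene. Sites read 5000 times or more in each library on chromosomes 1 to 8 numbered 7593 in listed plus-strand genes, where the reference C is a cytidine of the transcript. Their median rate was 0.966%, with the middle of the distribution narrow (10th percentile 0.709%, 90th 1.25%), against a control median of 0.0336%. Of them, 99.5% were called higher. The 1048 deep sites in minus-strand genes had a median of 0.0296%, against 0.0106% in the control, and 25.2% were called higher. Under 0.1% lay 85.6% of the minus-strand sites and 0.698% of the plus-strand sites. The 5934 deep sites outside the listed genes covered both ranges, with a median of 0.622% and 27.4% under 0.1%. Rates of the plus-strand sites varied more than their counts alone gave: below a rate of 5%, the standard deviation among them was 0.298 percentage points, against 0.108 from counting. The same held for minus-strand sites, with 0.302 against 0.0293, and for sites outside the listed genes, with 0.447 against 0.0577.

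**Figure D2:**
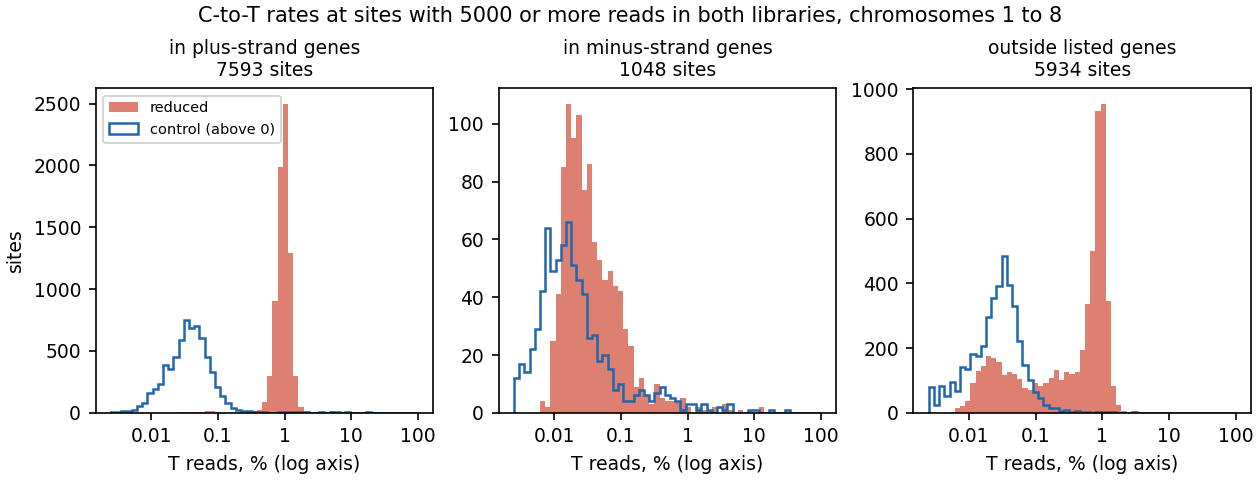
Number of sites by T rate (percent, log axis) among sites read 5000 times or more in each library on chromosomes 1 to 8, in plus-strand genes, in minus-strand genes and outside listed genes, for the reduced library (filled) and the control (outline, sites above 0 alone). Plus-strand sites after reduction gather around their median of 0.966%, minus-strand sites lie mostly under 0.1%, and sites outside listed genes show both ranges.

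For high rates the contrast between the strands was smaller per kilobase of gene. Per tested site, a share that depends on which bases were listed, it ran the other way. Over whole genes on chromosomes 1 to 8, the 1567 plus-strand genes held 1966 called sites per 100 kilobases and the 1437 minus-strand genes 14.1. Of called sites at least 10 points above the control, plus-strand genes held 0.842 per 100 kilobases (50 sites in 38 genes) and minus-strand genes 0.658 (36 sites in 28 genes). They made up 0.0294% of the 170096 tested sites in plus-strand genes and 1.33% of the 2708 in minus-strand genes. Those totals hold only bases that reached the listing minimum of 5 T reads, so these 2 shares do not compare the cytosines of the genes themselves. Among the sites with at least 1000 treated reads, a rise of at least 10 points and a control of at most 1%, 7 lay in plus-strand genes and 11 in minus-strand genes. The 7 plus-strand sites had between 20 and 53 other tested sites within 50 bases. Each of the 11 minus-strand sites had 0 or 1. All tested sites with at least 1000 treated reads had a median of 25 such neighbours. The 11 minus-strand sites therefore stood alone or nearly so among bases that rarely reached the table, at rates of 22.4% to 77.2%. They had 0 T reads in the control. Few bases of minus-strand genes were listed at all, and neighbours of their other sites are not given here. Few neighbours is thus not shown to be particular to these 11.

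The highest rate of the table among sites with a low control was in Os07g0529600, at chromosome 7 position 20724692 of the IRGSP-1.0 genome. The base is the 112th of the 1489 bases that the gene spans (20724581 to 20726069, plus strand). T was read 4908 times in 5188 reads after reduction (94.6%, interval 94.0 to 95.2) and 0 times in 3258 control reads, which allows up to 0.0921%. Around it, the 53 other tested cytosines within 50 bases had a median rate of 0.945%. One base of the transcript thus stood near full conversion among neighbours at the level of other plus-strand cytosines. This gene also had the most called sites for its length, 447 in 1489 bases or 300.2 per kilobase.

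Another plus-strand gene held a pair of high sites. In Os04g0418800 (chromosome 4, 20708033 to 20709830), position 20708733 read T in 758 of 1270 reads (59.7%, interval 56.9 to 62.4) against 1 of 3202 in the control. Position 20708673 of the same gene read T in 480 of 1495 reads (32.1%) against 3 of 3750. The 33 tested neighbours of the first site had a median of 0.560%. Os07g0173501, also on the plus strand, had 23.9% at position 3874735 (318 of 1329 reads, control 1 of 4165) and 18.3% at position 3874762 (214 of 1172 reads, control 0 of 3955). Os02g0504500 reached 32.7% at position 17934839 of chromosome 2, in 432 of 1320 reads against 0 of 3807.

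Most of the other highest sites lay outside the listed genes or opposite one. In the minus-strand gene Os02g0525600, position 19203229 of chromosome 2 read T in 1854 of 2400 reads (77.2%) and in 0 of 316 control reads, a limit of 0.949%. In the minus-strand gene Os01g0192000, position 4949360 of chromosome 1 read T in 1412 of 2569 reads (55.0%) and in 0 of 314. The former had 1 tested neighbour within 50 bases and the latter 0. Outside all listed genes were chromosome 1 position 22330953 with 78.9% (280 of 355 reads), chromosome 7 positions 3899736 with 70.4% (421 of 598) and 3885340 with 68.4% (1255 of 1835), and chromosome 3 position 12630582 with 56.6% (154 of 272). Chromosome 6 position 18218680 had 55.6% from 63 reads, with an interval of 42.5 to 68.1, and chromosome 5 position 6359630 had 51.0% from 833 reads. In these 6 sites the control had 0 T reads, or 1 of 2163 at 3885340, but its depth differed: 60 reads at 22330953 allow a rate of up to 5.00%, and 72 reads at 18218680 up to 4.17%.

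**Figure D3:**
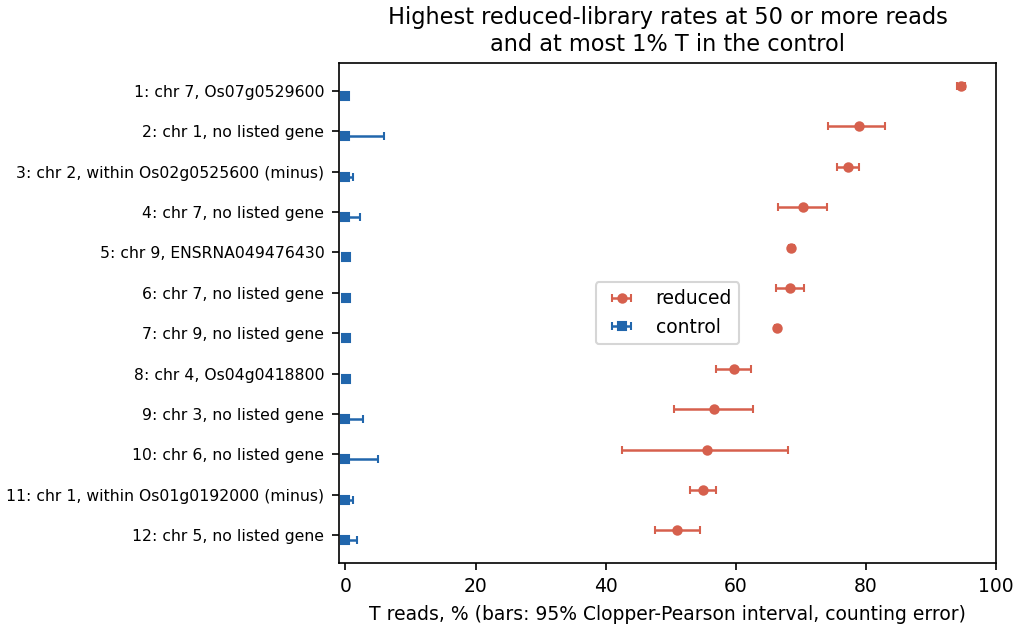
T rate (percent) of the 12 highest sites with a control of at most 1%, in the reduced library (red circles) and the control (blue squares), with exact 95% Clopper-Pearson intervals that cover counting error. The site in Os07g0529600 stands above the rest at 94.6%, and the chromosome 6 site, read 63 times, has the widest interval.

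On chromosome 9 the listed sites lay within its first bases (positions 1019 to 30801) and were read at a median depth of 94748.5. Here 98.4% of 5478 tested sites were called higher, at a median rate of 0.713%. High sites recurred there at a spacing of 7928 bases, and ENSRNA049476430 and ENSRNA049476447, of 1811 bases each, start 3 such spacings apart. T was read at 68.6% at position 4910 (33539 of 48921 reads, control 0.0624%), the 1285th base of ENSRNA049476430, and at 66.4% at position 12838 (46376 of 69874, control 0.0659%). At position 28694, base 1285 of ENSRNA049476447, it was read at 84.1% (79261 of 94212) against 2.14% in the control. The position between them at the same spacing, 20766, had 6 T reads in 11399, or 0.0526%. Another base, number 1784 of these genes, read 24.0% at position 5409, 4.57% at 13337 and 4.95% at 29193. If these are near-identical copies, reads of one can be placed on another, so the split of a rate between them is uncertain. The files give these genes by ID alone.

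Mitochondrial sites were deeply read and low in rate, while chloroplast sites were near the nuclear level. The 4433 tested mitochondrial sites had a median rate of 0.411% at a median of 12101 reads, 53.0% were called higher, and 1.74% were called lower, against 0.285% of all sites. At 5000 to under 20000 reads their median was 0.205%, against 0.948% on chromosomes 1 to 8, but with 20000 reads or more it was 0.578% against 0.402%. In atp1, a subunit of the mitochondrial ATP synthase, T made up 0.177% of reads after reduction and 0.0534% in the control, and 43 of 226 tested sites were called. In cox1, a core subunit of cytochrome c oxidase, the shares were 0.0870% and 0.00353%, with 3 of 29 sites called. The mitochondrial entry EPlORYSAT000373608 had 0.476% against 0.0195%, with 722 of 763 sites called. The 1269 chloroplast sites had a median of 1.03%, and 48.5% were called. Chloroplast atpA and atpH, both of the chloroplast ATP synthase, had 1.30% and 1.02% after reduction, and no T read in 11311 and 36216 control reads at their tested sites.

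A site could be called lower only where the control had T reads, so the counts by control rate are a description. Of the 466 sites with more than 20% T in the control, 339 were called lower and 33 higher. At control rates over 5% up to 20%, 364 of 1024 sites were called lower and 94 higher. Of the 958 sites called lower, 739 lay outside the listed genes, 152 in minus-strand genes and 67 in plus-strand genes. The largest falls were at chromosome 3 position 24899846, from 79.8% of 89 control reads to 3.14% of 191, and at chromosome 2 position 32255319, from 76.7% of 266 to 8.76% of 194. Chromosome 6 position 13895090 read 83.1% in the control and 21.0% after reduction, chromosome 4 position 24109737 read 85.7% and 23.8%, and chromosome 5 position 27104037 read 75.1% and 14.7%. These 5 lay outside the listed genes, with adjusted p between 1.08e-57 and 1.64e-26 by Fisher's exact test.

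Genes were then ranked by sites and by rate. The gene table holds 1904 plus-strand genes, of which 1574 lay within the stretches that listed sites cover. Those stretches are on chromosomes 1 to 8, the start of chromosome 9 and the organelle genomes. Of these, 1478 (93.9%) had at least 1 called site, 166 (10.5%) a called site at least 5 points above the control, and 40 one of at least 10 points. The authors chose the genes of that table as carrying ac4C, so the first share is not independent of the sites. A gene had a median of 39 called sites. The most were in the mitochondrial entry EPlORYSAT000373608 with 722, followed by Os04g0656100 with 654, Os03g0324300 with 602, Os05g0128200 with 576 and Os03g0276500 with 544. Os06g0681400 had 541, Os03g0181500 and Os03g0324200 had 540 each, Os02g0611800 had 503 and Os04g0459500 had 490. None of these 10 genes had a called site of 5 points or more.

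Genes with more mRNA had more called sites. Across the 1574 genes, it correlated with wild-type mRNA RPKM with a Spearman rho of 0.634, a description over genes that share the same pair of libraries. In 4 equal classes of genes by wild-type mRNA, from low to high, whose medians were 5.74, 13.1, 25.2 and 75.1 RPKM, the median number of called sites was 6, 15, 46 and 146.5. Genes with a called site of at least 5 points ran otherwise, with 48, 64, 36 and 18 in the same 4 classes. The pooled rate of a gene (its T reads over its reads at tested sites) fell with its depth, with a rho of -0.923 over the 1414 genes with at least 10 tested sites. The 10 highest by rate were taken from those with a pooled control rate of at most 1%. Accordingly these 10, led by Os07g0695800 at 4.31% (interval 3.67 to 5.01) and Os07g0510200 at 4.09%, had median depths of only 150 to 246 reads. At 200 reads the listing minimum of 5 T reads already corresponds to a rate of 2.5%.

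With depth held high, genes were much alike. Among the 384 genes with a median of at least 1000 treated reads, the median pooled rate was 0.971%, and 341 (88.8%) lay between 0.8% and 1.2%. At 1000 reads the listing minimum of 5 T reads corresponds to a rate of 0.5%, so the listing also limits how low these genes could lie. The median over all 1414 genes was 1.23% after reduction, and each of them was above its own control. That direction is largely set by the listing, which needs T reads in the reduced library and none in the control. Of the deeper genes, 8 lay over 1.2%. ENSRNA049471043, on chromosome 2, was highest at 2.33% against 0.0295% in the control. In Os07g0529600 (1.21%), the single site described above contributed 4908 of the 23293 T reads.

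**Figure D4:**
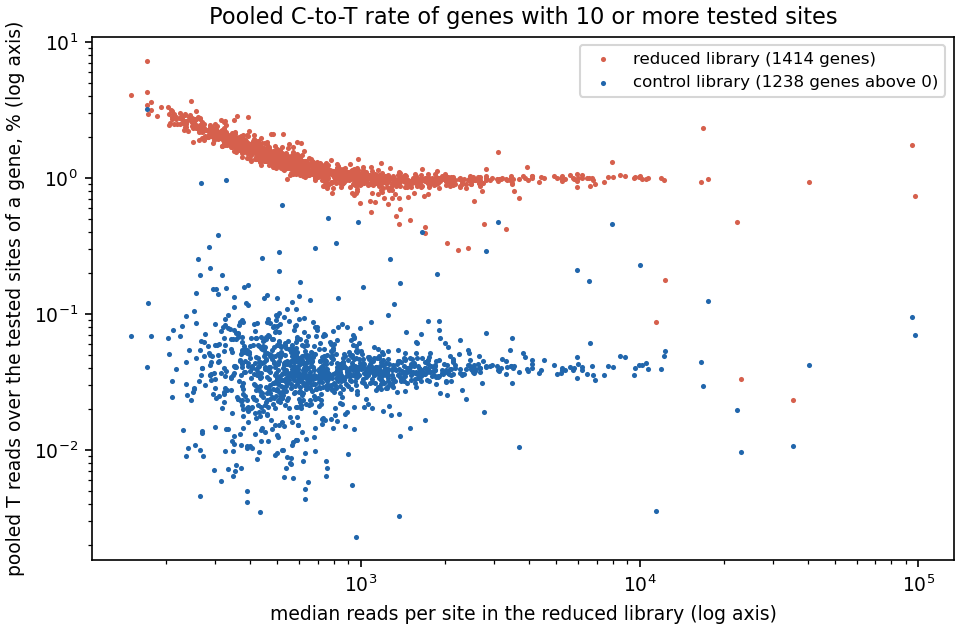
Pooled T rate of each of the 1414 plus-strand genes with at least 10 tested sites (percent, log axis) against the median reads per site in the reduced library (log axis), for the reduced library (red) and the control (blue, genes above 0 alone). Rates after reduction fall with depth to a band around 0.971% from 1000 reads on, with a few deep genes below it.

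At the low end, 14 of the 384 deep genes were under 0.5%. Mitochondrial atp1, cox1 and EPlORYSAT000373608 were 3 of them. Os03g0146200 had 0.0232% (control 0.0107%) and Os04g0667850 0.0334% (control 0.00959%). All 69 tested sites of the former also lay in the minus-strand gene Os03g0146100, and all 24 of the latter in the minus-strand gene Os04g0667800, so the strand of the transcript that was read there cannot be told from the spans. Such sites in listed genes of both strands, 102 on chromosomes 1 to 8, were left out of the contrast by strand. The other 9 overlapped no listed minus-strand gene and lay close together on chromosome 2, between positions 28622391 and 29081208, with pooled rates of 0.293% to 0.493%. Within the same span lay ENSRNA049471043 and ENSRNA049471102, the latter with 0.709%, and just outside it Os02g0690700 had 0.529% and Os02g0708100 0.594%. Os02g0697800 was lowest among the 9, with 0.293% at a median of 2227.5 treated reads, and had no called site. Whether the read totals also count reads that only skip over a base as a spliced gap is not given in the sources used here.

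Few genes held several sites of at least 5 points: 46 of the 166 had 2 or more. ENSRNA049471043 had 9, all between its bases 136 and 199 and between 5.04% and 9.75%, read 6847 to 18670 times. In Os02g0510200 there were 8, and 4 of them exceeded 10 points, at 19.8% (107 of 541 reads), 19.4% (99 of 510), 18.9% (83 of 440) and 15.2% (66 of 435), against at most 1 T read in the control at each. Os07g0600700 had 6, Os03g0862100 and Os04g0137201 had 5 each, and Os07g0201100, Os05g0292200 and Os01g0383700 had 4 each. Os07g0173501 and Os01g0348600 had 3. Depth divides this list as well: in Os04g0137201, the 5 sites rested on 63 to 126 reads and 5 to 9 T reads each, while the higher pair in Os07g0173501 rested on over 1000 reads.

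Along plus-strand genes of chromosomes 1 to 8, cut into 5 equal lengths from the 5' end, the share of tested sites called higher fell from 85.0% in the first part through 79.6%, 78.5% and 71.4% to 48.8% in the last. The median rate after reduction barely moved, from 1.06% to 1.03%. The depth of the control did: its median was 1729 reads in the first part and 503 in the last, while the reduced library had 929 and 950. The ratio of treated to control reads at a site had a median of 0.535 at the 5' end and 1.94 at the 3' end. Fewer control reads give the test less power, so the fall in called sites and the fall in control depth cannot be told apart here. Sites of at least 5 points numbered 87 of 32137 tested (0.271%) in the first part and 34 of 56012 (0.0607%) in the last. Over all plus-strand genes of these chromosomes they numbered 250 of 170096 tested, with sites that also lay in a minus-strand gene left out. The share over all tested sites, 0.591%, is no like measure, since outside the listed genes it was 1600 of 151592. Sites of at least 5 points had to pass the same test, so the limit from control depth holds for them too.

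**Figure D5:**
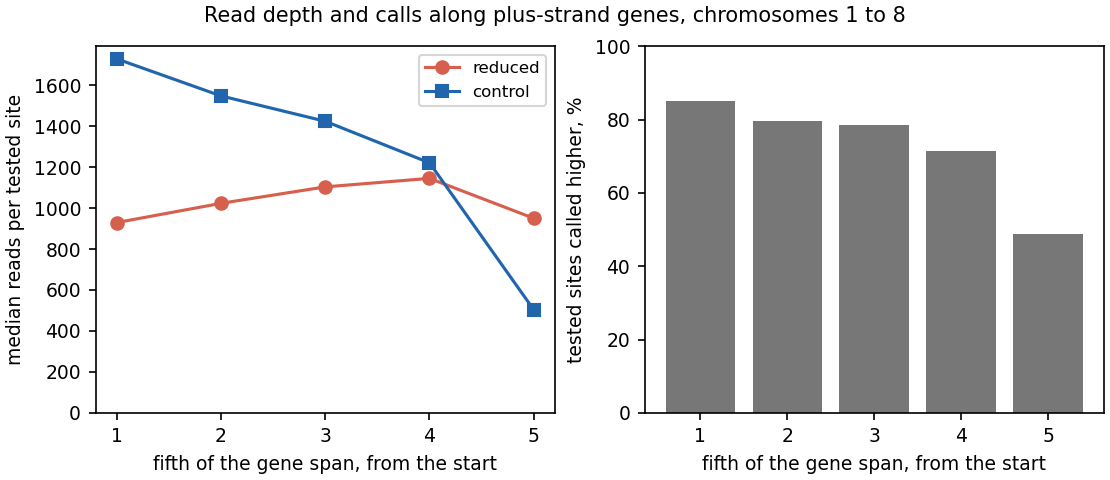
Left, median reads per tested site in the reduced and the control library, and right, the share of tested sites called higher (percent), for 5 equal parts of the span of plus-strand genes on chromosomes 1 to 8, from the gene start. Control reads drop from 1729 to 503 and the called share from 85.0% to 48.8%.

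RNC-mRNA over mRNA gave a readout that did not enter the choice of sites. Translation efficiency (TE) was taken as log2(RNC-mRNA RPKM + 1) minus log2(mRNA RPKM + 1), and compared as osnat10 minus wild type. Its median difference was -0.09 over the 1473 nuclear genes with a called site and -0.14 over the 96 without one, beside -0.09 over all 1569. For the 40 genes with a site of at least 10 points it was -0.23, for 126 with a highest rise of 5 to under 10 points -0.17, and for 1307 with smaller rises -0.08. Single genes spread far wider, with 10th and 90th percentiles of -0.67 and 0.29 in the 40 genes and -0.74 and 0.50 over all 1569. TE was lower in osnat10 in 67.5% of the 40 genes, 67.7% of the 96 without a called site and 58.6% of all. Leaving out 1 library at a time moved the median over genes with a called site between -0.15 and -0.04. With 2 libraries per group these medians are descriptions and no test of a difference between the gene classes was made. The sites were measured in another cultivar than the RPKM, and no site was measured in osnat10.

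The level of some genes with high sites is given here by library, with no test. They do not stand for the class. Over the 40 genes with a site of at least 10 points, the median log2 mRNA difference, osnat10 minus wild type, was 0.02. Over all 1569 genes it was -0.06. Os07g0529600 had mRNA of 29.1 and 22.5 RPKM in the wild-type libraries and 6.73 and 9.61 in osnat10. Its RNC-mRNA was 35.9 and 26.5 RPKM in wild type and 5.62 and 7.08 in osnat10. Both osnat10 libraries lay below both wild-type libraries in each fraction, with a log2 difference of -1.55 in mRNA and -0.57 in TE. Os07g0600700 had mRNA of 35.4 and 35.4 RPKM in wild type against 13.4 and 16.2, and RNC-mRNA of 79.7 and 81.8 against 22.6 and 39.8, with a TE difference of -0.18. Os02g0510200 overlapped in mRNA, at 154 and 110 RPKM in wild type and 125 and 149 in osnat10, and had a TE difference of -0.24. In Os07g0173501 the TE difference was -0.22, and in ENSRNA049471043 it was 0.05, with mRNA libraries of 1 genotype as far apart as 221 and 63.0 RPKM.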

How the data were processed

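The authors deposited counts: for each rice reference C, the T reads and all reads in the reduced and the control library, with a p-value and an adjusted p-value. At all sites (100%), within a relative tolerance of 0.001, the deposited p-value equalled a continuity-corrected test of 2 proportions, and the deposited adjusted p-value its Benjamini-Yekutieli adjustment. The gene table holds RPKM values that the authors deposited for each library, beside natural log columns of their own comparison, which were not used. STAR 2.5.3a, SAMtools and the build IRGSP-1.0 are named in the submitters' processing notes; their parameters and read filters are not given in the sources used here. The 4 wild-type RNC and mRNA columns carry a group but no replicate number.

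From the counts, T rates were computed per site, and each site read 50 times or more in both arms was compared by Fisher's exact test (two-sided), Benjamini-Hochberg adjusted over 335678 sites at 0.05, checked on simulated counts. TE used a pseudocount of 1 RPKM. Sites were matched to genes by span and strand, introns included. Work used Python 3.11.15, numpy 2.4.6, pandas 2.3.3, scipy 1.17.1 and numba 0.67.0. Named were the 12 highest called sites with a control of at most 1% (1 per gene or, outside genes, per 10 kilobases) and the 5 largest falls. Also named were the 10 genes with the most called sites, with the highest pooled rate and with the most sites of at least 5 points. The list by pooled rate took genes with at least 10 tested sites and a pooled control rate of at most 1%. Further sites and genes named were chosen after their values were seen. The comparisons and lists were chosen with earlier results of these data known. The reference names matched 0 of 3695 rice gene IDs, so gene functions and the sequence around sites were not analysed here. Alternatives were other read minimums, the deposited adjusted p, the Benjamini-Yekutieli adjustment, a control limit, 3 restrictions chosen after seeing the data, and leaving out libraries.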

Additional observations from a re-analysis of the deposited data

Results flagged for a closer look

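Of the 5759 listed sites with under 50 reads in a library, which entered no comparison, 116 had an interval of the treated rate wholly above that of the control. The highest of them, chromosome 6 position 21380115, read T in 659 of 746 reads (88.3%, interval 85.8 to 90.6) after reduction and in 0 of 27 control reads, which allows a control rate of up to 11.1%. It was singled out because the signal lay in data outside the main measurement, and it lies in no plus-strand gene of the table.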

How the results depend on the processing

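Of 66 recomputed values, 43 stayed within their limits and 23 moved. The limit was 1.5 times the main value for a count and the spread between libraries for the TE median. For a median rate it was the Clopper-Pearson interval at the median depth, which is wide. With a minimum of 200 reads, sites called lower came to 627, those of at least 5 points to 401, those of at least 10 points to 172, and genes with a site of at least 5 points to 52. The authors' deposited adjusted p gave 114091 sites higher, 620 lower, 941 of at least 5 points and 85 genes with such a site. The Benjamini-Yekutieli adjustment gave 131576 sites higher and 1143 of at least 5 points. Restriction to a control rate of at most 1% left 99 sites lower.

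The following were chosen after seeing the data. With at least 5 T reads in both libraries, retested within that set, 20109 sites were higher, 199 by at least 5 and 108 by at least 10 points. With at least 1000 treated reads, 108543 were higher, 352 lower, 135 at least 5 and 65 at least 10 points above. With depths within 2-fold of each other, 124552 were higher, 546 lower, 1280 at least 5 and 273 at least 10 points above. These subsets test fewer sites. Leaving out each RNC-mRNA or mRNA library moved the median TE difference of -0.09 to between -0.15 and -0.04, the lowest without the first listed osnat10 mRNA library.

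No paired analysis was possible because each ac4C-seq arm had 1 library and the TE median comes from no test. Gene groups by product name and the sequence around sites were not run, for lack of gene names for these IDs and of a genome. Depth limits single sites most under 200 reads, where listing needs a rate of at least 2.5%, and control depth limits the bound on each high site.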
